A study of Mus musculus with 18 samples.

Results

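The contacts of the microRNA (miRNA) miR-142a with RNA were examined in thymocytes, the developing T cells of the thymus, of 6-week-old mice. They were measured by miR-eCLIP, in which 254 nm ultraviolet light links Argonaute 2 (Ago2) to the RNA it holds, Ago2 is immunoprecipitated (Ago2 IP), and the miRNA in the protein is ligated to its target fragment. Each chimeric read then names a miRNA and a position in the genome. Members were all reads named mmu-miR-142a-3p or mmu-miR-142a-5p, the 2 arms of the Mir142 hairpin, in the 6 Ago2 IP libraries among the 18 samples of the series. They came to 135712 of 411434 chimeric reads, all of them miR-142a-3p.

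The groups were 3 libraries from C57BL/6 mice (here, wild type) and 3 from B6.Mirc14tm1.1Ankr mice, labelled miR181a/b-1-KO (here, knockout). The labels name total thymocytes and no sorted stage, and do not say how many mice gave each library, so p-values measure the spread between these libraries. The deletion removes Mir181a-1 and Mir181b-1 on chromosome 1, whereas Mir142 lies on chromosome 11. The comparison with the knockout therefore asks what happens to the contacts of a miRNA that was not deleted. Because miR-181 reads drop in the knockout by design, levels are given as a share, or as reads per 1000000 (RPM), of each library's reads outside the miR-181 family (337802 reads in all).

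A miRNA guides Argonaute to messenger RNAs through its seed, bases 2 to 8 from the 5′ end, which pairs most often with sites in the 3′ untranslated region, and lowers translation and stability of the messenger. miR-142 is made almost only in blood cells and is abundant in all their lineages. Mice that lack it have defects in lymphocytes, platelets and the actin cytoskeleton, and the cell cycle inhibitor Cdkn1b is among its reported targets in T cells.

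The sequences below are from RefSeq, build GRCm38.p6. They are shown because the seed decides which contacts a miRNA makes. Capitals mark the seed in the mature miRNAs and the 2 mature arms in the hairpin, which lies on the plus strand at chr11:87756864-87756927.
mmu-miR-142a-3p: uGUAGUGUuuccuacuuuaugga
mmu-miR-142a-5p: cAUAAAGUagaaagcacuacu
Mir142 hairpin: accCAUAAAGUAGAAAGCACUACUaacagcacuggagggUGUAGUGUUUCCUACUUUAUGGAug

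The 3p arm has 23 bases and the 5p arm 21. None of the other names among 1679 mature mouse miRNAs of that table carried the seed of either arm. The 10 next most abundant miRNAs outside the miR-181 family, used below as the yardstick, matched the table and held 3 seeds. These are the seeds of miR-16, of the miR-17 family (miR-17, miR-20a, miR-20b and miR-93) and of let-7 (let-7a, let-7c, let-7d, let-7f and let-7g), shown here by 1 member each.
mmu-miR-16-5p: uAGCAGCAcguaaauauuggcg
mmu-miR-17-5p: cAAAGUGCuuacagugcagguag
mmu-let-7a-5p: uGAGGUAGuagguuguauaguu

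Libraries held between 43983 and 117849 chimeric reads, with 369 miRNA names among them. The defining genes of thymocytes were present in the RNA held by Ago2. The 10 thymocyte marker genes (among them Cd4, Cd8a, Rag1 and Themis) summed to between 12164 and 14222 reads per 1000000 of all chimeric reads in wild type and between 11517 and 12438 in the knockout. Over the 6 libraries the 5 thymic epithelial genes had 0 reads, the 4 B cell genes 5 reads (Ms4a1 was at 0), the 4 myeloid genes 10 reads (Cd68 was at 0) and the 5 erythroid genes 20 reads. The summed B cell level was between 0 and 25.5 per 1000000 in wild type and between 0 and 14.8 in the knockout, the myeloid level between 14.5 and 25.5 and between 16.5 and 38.4, and the erythroid level between 42.4 and 101 and between 0 and 44.4. Of the miRNAs of other cell types, miR-223-3p (myeloid) had 49 reads, with 105 to 336 RPM in wild type and 97.4 to 183 in the knockout. miR-451a (erythroid) and miR-126a-3p (endothelial) had 24 each and miR-200b-3p (epithelial) had 8. miR-144-3p (erythroid), miR-205-5p (epithelial) and miR-122-5p (liver) had 0. The part of these genes and miRNAs in the results was not tested. In bulk libraries, fewer cells of a type and less RNA per cell cannot be told apart, and neither can more contacts per messenger and more messenger.

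miR-142a-3p was the most frequent miRNA outside the miR-181 family in every library. It took 40.2%, 40.5% and 39.5% of these reads in the wild-type libraries (33095, 19298 and 11756 reads). In the knockout libraries it took 40.4%, 40.9% and 39.0% (24257, 27305 and 20001 reads). The 6 shares lay within about 2 points of each other, and those of the 2 groups overlapped. The mean was 40.1% ± 0.504 in wild type and 40.1% ± 1.03 in the knockout (SD, n = 3 each), a difference of 0.0599 points (two-sided exact permutation test, p = 1, smallest possible p 0.1). Within 1 library, the counting error was smaller than that spread, with a 95% Wilson interval of 39.9% to 40.5% in wild-type library 1.

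The next miRNA, miR-16-5p, had a mean share of 5.76%, so that miR-142a-3p was 6.96 times as frequent. miR-20a-5p followed with 4.46%, let-7a-5p with 4.13% and miR-17-5p with 4.04%, and let-7c-5p closed the 10 with 1.80%. Frequency in chimeric reads is not cellular abundance, since ligation and crosslinking differ between miRNAs. As a share of all chimeric reads, miR-181 included, miR-142a-3p rose in the knockout by 11.97 points from a mean of 27.6% to 39.6%, with no overlap between groups (exact permutation p = 0.1, the smallest possible), since its denominator lost most miR-181 reads.

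**Figure D1:**
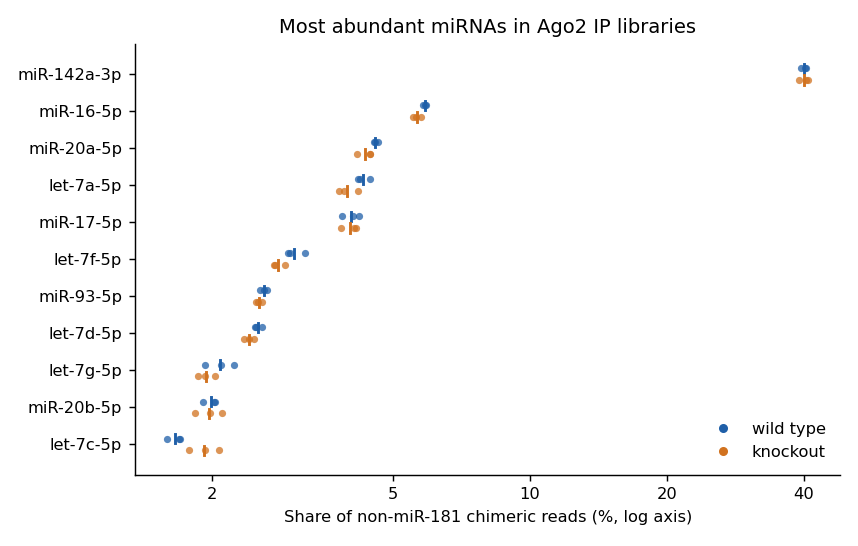
Share of reads outside the miR-181 family (percent, logarithmic axis) for miR-142a-3p and the 10 next most abundant miRNAs. Points are libraries, blue for wild type and orange for knockout, and short bars are group means. miR-142a-3p sits near 40% in all 6 libraries, and the other miRNAs lie at or below 5.92%.

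In the test over all miRNAs (edgeR quasi-likelihood with Benjamini-Hochberg adjustment), miR-142a-3p did not pass, with a log2 fold change of knockout over wild type of -0.03 (SE 0.04, adjusted p = 0.602). Of the 117 miRNAs tested, 10 passed an adjusted p of 0.05 (8.55%; 3.42% higher and 5.13% lower in the knockout). These include miR-181 names, and of the 112 outside that family 6 passed, 4 higher and 2 lower. An approximate 95% interval for the change of miR-142a-3p ran from -0.11 to 0.04. Among the 112 tested miRNAs outside the miR-181 family the median change was 0.02, the middle 50% ran from -0.15 to 0.27, and 49 lay below miR-142a-3p. Its change was thus well inside the range of the others. When edgeR used library sizes alone, without the TMM factors, the change turned to 0.52 (adjusted p = 1.7e-08), and 90 miRNAs then passed.

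No read of the 5p arm was found. miR-142a-5p had 0 of the 117849 to 43983 reads of each library, which allows a share of up to 0.00255% of the reads in the deepest library and 0.00682% in the shallowest (counting error only). No other name with miR-142 occurred. Of 677 hairpins with 2 mature names in RefSeq, 46 had at least 1000 reads of their major arm. The minor arm had at least 1 read in 30 of the 46, up to 22.3% of both, and 0 reads in 16. Apart from Mir142 these 16 were 15 hairpins with 11 different major arms, since paralogous hairpins share one. Their major arms had 1110 to 16497 reads, against 135712 for miR-142a-3p. Whether the set of names used for mapping held miR-142a-5p was not tested, so that no 5p targets, no overlap of the arms' targets and no change of the arm ratio could be given.

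Most miR-142a-3p reads fell in protein-coding gene spans. On average 88.8% ± 0.583 (SD, n = 6) of them lay in such a span on the matching strand or on a strand the table did not give, against 89.3% ± 0.411 of the reads of all other miRNAs outside the miR-181 family. The table gives spans without exons, so exonic, intronic and untranslated positions were not told apart. A small part, 5.06%, lay outside all spans and 1.42% on the opposite strand of a gene.

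Compared within each library, miR-142a-3p differed slightly from the other miRNAs in where its reads lay. These 8 features were tested by an exact sign-flip permutation over the 6 libraries, a test added after the data were seen, whose smallest p is 0.03125. The largest relative differences were at the mitochondrial genome and at miRNA hairpins. Mitochondrial reads made up 1.69% ± 0.130 of miR-142a-3p reads and 0.914% ± 0.0622 of the others, higher in 6 of 6 libraries. Reads at miRNA hairpins made up 0.0801% ± 0.0343 and 0.460% ± 0.162, lower in 6 of 6. Of the 100 miR-142a-3p reads at any hairpin, 8 lay at Mir142 itself. Position relative to the span's end was taken only over reads in protein-coding spans with a known and matching strand, not over all reads. Of these, reads in the final 10% of a span, where most 3′ untranslated regions lie, made up 27.3% ± 0.522 against 25.9% ± 0.450, higher in 6 of 6. Reads within 1000 nt of the span's end were slightly fewer, 12.7% against 13.2% (lower in 6 of 6), and those within 2000 nt slightly more, 21.2% against 20.5% (higher in 5 of 6, exact permutation p = 0.0625). For the other 7 features the exact permutation p was 0.03125, or 0.0357 after adjustment over the 8, and the gaps were 0.226 to 1.46 points.

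The reads of miR-142a-3p were spread thinly over a very large number of places. Reads on 1 strand whose neighbouring positions lay at most 20 nt apart were joined into a site, which gave 92650 sites. Of these, 80005 (86.4%) held a single read, and together they held 59.0% of the reads. Only 858 sites held 10 or more reads, with 16.2% of the reads among them. The 10 largest sites held 2.16% and the 100 largest 6.49%. Sites with at least 3 reads in every library numbered 106 and held 6.33% of the reads.

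This spread was wider than for any of the 10 other abundant miRNAs. To compare miRNAs of different depth, the number of pairs of reads in a library that fell on the same site was counted per 10000 pairs. For miR-142a-3p the libraries gave between 0.891 and 1.12 such pairs (mean 0.982 ± 0.0775, SD, n = 6). The means of the other 10 ran from 1.89 for let-7f-5p to 5.11 for let-7a-5p, and the lowest single library of them was miR-20b-5p in wild type, with 1.09. Only that library fell within the range of miR-142a-3p. For miR-142a-3p the mean was the same in both groups, 0.982 ± 0.122 in wild type and 0.982 ± 0.00200 in the knockout. In 400 reads drawn from a library, miR-142a-3p would meet 393.5 ± 0.452 different sites and the others between 378 and 390 on average. Identical reads weighed on the size of the measure, which fell to 0.471 when they were counted once, but miR-142a-3p stayed lowest of the 11 in all 5 alternative counts.

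**Figure D2:**
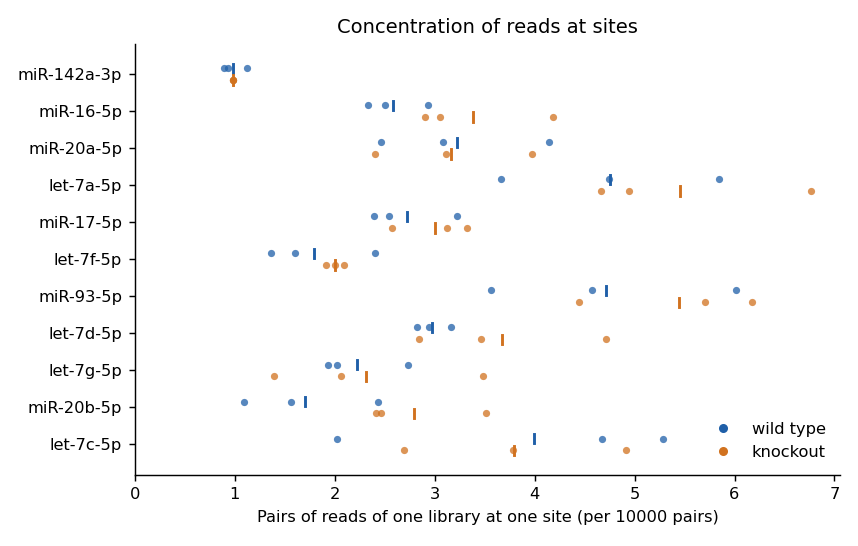
Pairs of reads of 1 library that fell on the same site, per 10000 pairs, for the 11 most abundant miRNAs outside the miR-181 family. Points are libraries and short bars are means of wild type (blue) and knockout (orange). The miR-142a-3p points lie between 0.891 and 1.12, and the miRNA with the next lowest mean, let-7f-5p, averages 1.89.

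Reads with a gene name (93.1% of the miR-142a-3p reads) fell into 9923 gene spans. Of these 2881 held 10 or more reads and 753 held at least 3 in every library. The 20 spans with the highest mean level held 6.86% of the reads and the 100 highest 18.1%. Raw levels favour long genes, so reads per kilobase of span are given where genes are compared.

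Genes that thymocytes depend on led the list. Themis, which sets the strength of T cell receptor signals during thymic selection, had 247, 107 and 72 reads in the wild-type libraries and 159, 174 and 162 in the knockout libraries. In RPM this was 2554 ± 397 against 2805 ± 304 (SD, n = 3), and the groups overlapped. Satb1, a chromatin organiser of thymocytes, had 186, 125 and 95 reads in wild type and 162, 170 and 108 in the knockout, or 2690 ± 470 against 2451 ± 311 RPM. Its groups overlapped too. Both genes are long, with 4.27 and 8.71 reads per kilobase, and their reads were scattered over 382 and 338 sites.

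Rag1, 1 of the 2 subunits of the recombinase that assembles antigen receptor genes, was reached far more densely. Its reads numbered 169, 114 and 79 in wild type and 111, 110 and 71 in the knockout, which is 58.0 per kilobase of its 11.3 kb span (chr2:101638252-101649532). In RPM, every knockout library (1628 ± 235) lay below every wild-type library (2366 ± 301). The change of -0.48 (log2, SE 0.14) did not pass in edgeR (adjusted p = 0.109), but did without wild-type library 1 (-0.59, adjusted p = 0.0163).

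Cdkn1b, the cyclin-dependent kinase inhibitor p27, had 97, 51 and 42 reads in wild type and 93, 75 and 59 in the knockout, or 1219 ± 174 against 1275 ± 239 RPM. The groups overlapped (log2 fold change 0.11, SE 0.17, edgeR adjusted p = 0.848). At 81.4 reads per kilobase of its 5.12 kb span it was the most densely contacted nuclear protein-coding gene of the 20. The kinase gene Taok1 had 89, 64 and 33 reads in wild type and 80, 78 and 59 in the knockout (1177 ± 143 against 1217 ± 101 RPM), again with overlap.

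Most of the other spans of the 20 were long genes with widely scattered reads. They were Arpp21, Skap1 (an adaptor of T cell receptor signalling), Arhgap15 (which turns Rac off), Tox (a nuclear factor of CD4 lineage development), Cux1, Glcci1, Ptprc (the phosphatase CD45), Dock2 (an activator of Rac in lymphocytes), Runx1 (a factor of T cell development) and Camk4 (a calcium-dependent kinase), with 307 to 495 reads each and at most 12.4% of them at 1 site. Non-messenger and mitochondrial spans were the lncRNA Gm4258, described below, the ribosomal RNA pseudogene Rn18s-rs5 (458 reads), the mitochondrial ribosomal RNA mt-Rnr2 (328) and the mitochondrial gene ND4 (564), a subunit of respiratory complex I. Ino80c, a subunit of a chromatin remodeller, completed them with 314 reads. Of the 20, only Gm4258 passed in the knockout comparison, in which 1.09% of all 458 contacts tested passed. The levels of the groups did not overlap for 3 of the 20, Gm4258, Rag1 and Runx1. Of all 458 contacts tested, 14.2% did not overlap, so neither count sets the 20 apart.

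**Figure D3:**
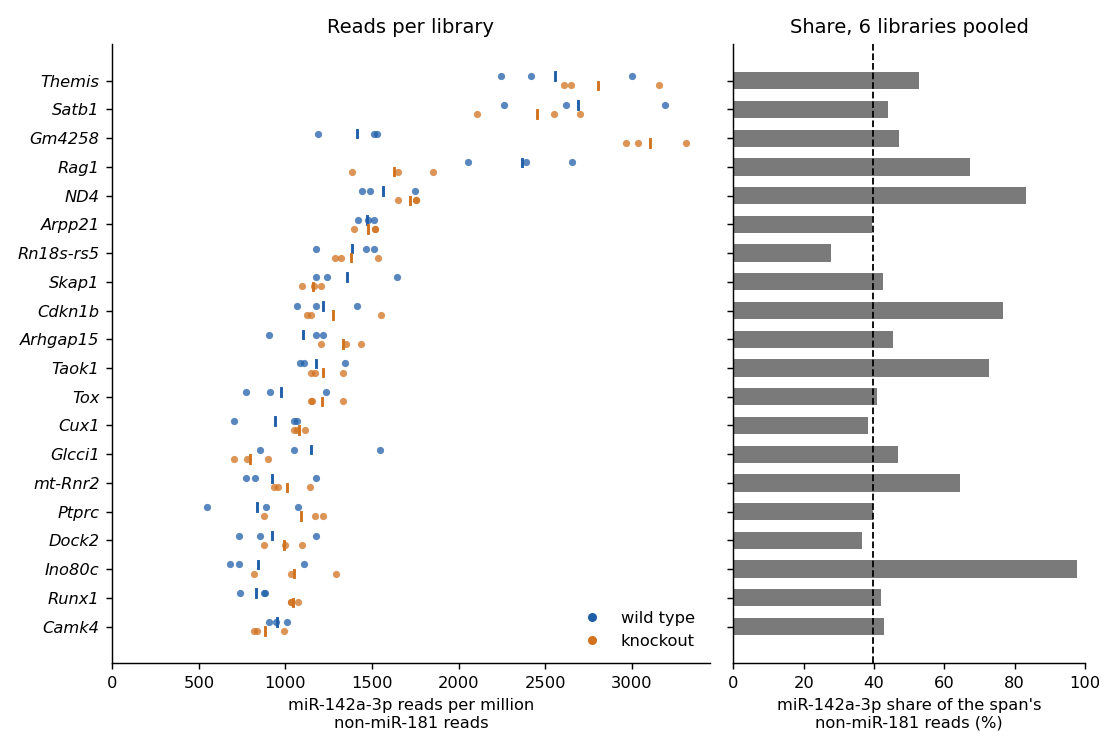
The 20 gene spans with the most miR-142a-3p reads. Left, reads per 1000000 non-miR-181 reads in each library (points) with group means (short bars) for wild type (blue) and knockout (orange). Right, miR-142a-3p as a percentage of all non-miR-181 reads of that span, 6 libraries pooled, with the median of 39.7% over 675 spans as a dashed line. The groups do not overlap for Gm4258, Rag1 and Runx1. The shares of ND4, Cdkn1b, Taok1, Rag1, mt-Rnr2 and Ino80c lie between 64.4% and 97.8%, and those of the other spans at or below 52.9%.

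The share of miR-142a-3p in a gene's own reads outside the miR-181 family does not scale with the gene's abundance or length. It depends also on the reads of other miRNAs there and on single positions with many reads. Over the 675 spans with at least 100 reads outside the miR-181 family the median share was 39.7%, and the middle 80% of spans ran from 24.6% to 56.4%. Only 19 spans reached 70%. Scattered genes such as Arpp21 (39.3%), Ptprc (39.7%), Dock2 (36.6%) and Cux1 (38.4%) sat at the median. Rag1 (67.3%), Taok1 (72.6%), Cdkn1b (76.8%) and ND4 (83.2%) were above the middle 80%. These genes were drawn from the spans ranked highest by miR-142a-3p reads, which raises the share, so their shares are a description only.

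The highest shares belonged to spans whose reads sat at 1 position. Pcgf1, a Polycomb subunit, had 166 reads at 98.8%, Ino80c 314 at 97.8% and Prps1, an enzyme of nucleotide synthesis, 234 at 96.7%. All but 1 of the reads of each fell on a single nucleotide position. In the last 2 genes 98.1% and 97.4% of the reads at it were repeats of an identical line. These percentages follow from the width, since a line gives only miRNA, position and strand. Every further read of a library at that position then counts as a repeat, and whether molecules were copied was not tested. The snRNA LOC115487699 followed with 93.9% and the antioxidant enzyme Gpx1 with 86.5%, 85 of whose 90 reads lay at 1 position. After these came genes with broader sites, Rpl37 (84.7%), Tmem59 (82.3%), Rab1a (78.7%), Rif1 (78.4%) and Rpl13a (77.6%).

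The 10 largest sites were of several kinds. The first were sites in nuclear protein-coding spans, many positions wide. Rag1 held the largest, at chr2:101640143-101640428 on the minus strand, with 102, 63 and 42 reads in wild type and 74, 66 and 45 in the knockout over 125 positions. It lay 1891 to 2176 nt inside the 3′ end of the span and took 59.9% of the gene's miR-142a-3p reads. The Cdkn1b site, chr6:134924242-134924384 on the plus strand, had 91, 47 and 37 reads in wild type and 87, 64 and 53 in the knockout, 1141 to 1283 nt from the span's end, and took 90.9% of the gene's reads. The Taok1 site, chr11:77534555-77534714 on the minus strand, had 54, 35 and 15 reads in wild type and 40, 55 and 33 in the knockout, 5393 to 5552 nt from the end.

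Of the reads outside the miR-181 family, miR-142a-3p made up 83.2% at the Rag1 site, 82.6% at the Cdkn1b site and 95.5% at the Taok1 site. The sites were drawn and ranked by their miR-142a-3p reads, which raises this share, so that it is a description of these sites only. The miR-181 family also had reads within the Cdkn1b site, 162 in wild type and 9 in the knockout. It had 32 and 1 at the Rag1 site and none at the Taok1 site. At Cdkn1b and Rag1 its reads peaked elsewhere than those of miR-142a-3p. In wild type, the 20-nt bin at the centre of the Cdkn1b site held 113 miR-181 reads and 37 of miR-142a-3p. The bin at 40 nt from it held 1 and 75. At Rag1 the fullest wild-type bin was at -60 nt for miR-181 (8 reads) and at 0 nt for miR-142a-3p (63). Over the whole Cdkn1b site, the miR-142a-3p reads of the 2 groups overlapped (log2 fold change -0.02, SE 0.20, edgeR adjusted p = 0.961). Whether the miR-181 reads bear on those of miR-142a-3p was not tested.

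The second kind lay in mitochondrial RNA, in ND4 (492 reads), mt-Rnr2 (237), ND1 (213) and COX1 (213), with shares of 89.9%, 78.2%, 65.3% and 74.2%. The third were narrow sites, the single positions in Ino80c (313 reads, chr18:24121581) and Prps1 (233 reads, chrX:140464155) and the 37-nt site of the snRNA LOC115487699 (228 reads, chr1:171503044-171503080). Of the 72 sites with 50 or more reads, 6 were at most 5 nt wide. Over the 40 largest sites the median share of miR-142a-3p was 84.2% (range 20.8% to 100%), and 31 of them reached 70%, again at sites chosen by its reads. None of the 10 largest passed in the test between genotypes (log2 fold changes -0.42 to 0.53, lowest edgeR adjusted p = 0.304), and of all 83 sites tested 3.61% passed.

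**Figure D4:**
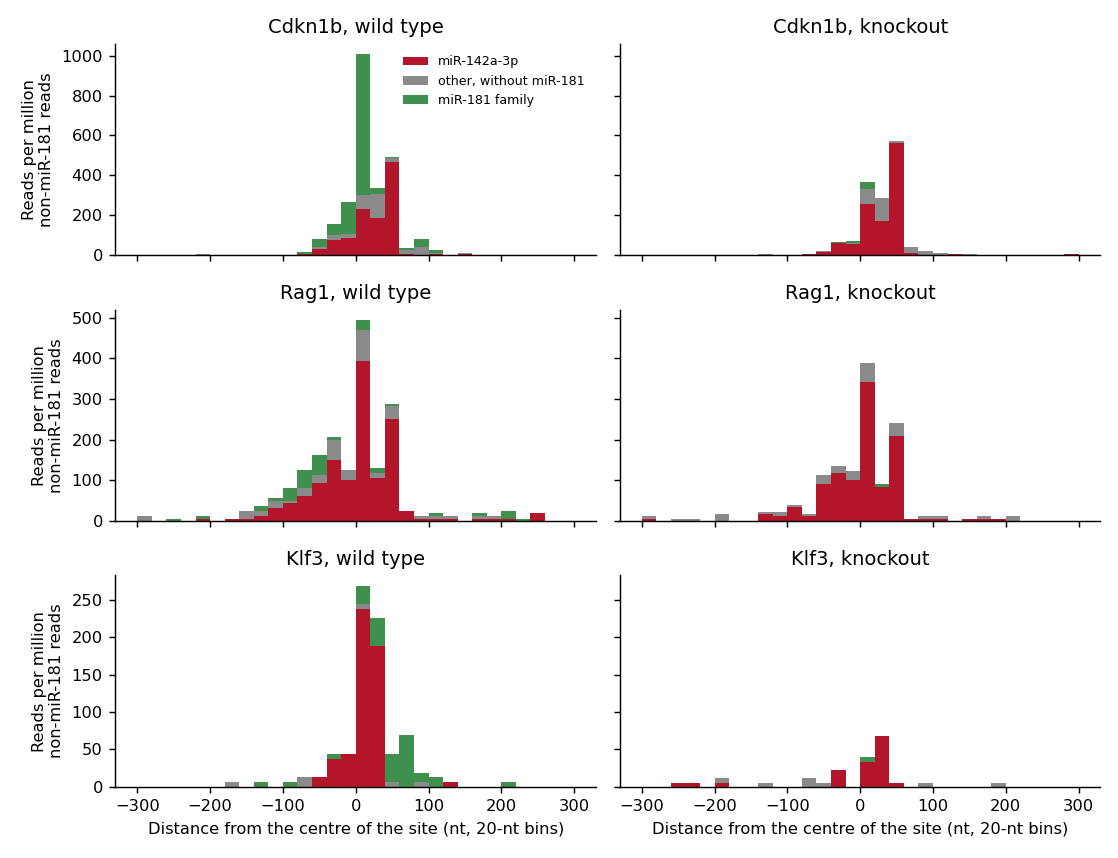
Reads around the largest miR-142a-3p site of Cdkn1b, Rag1 and Klf3, as reads per 1000000 non-miR-181 reads in 20-nt bins, against the distance from the site's centre in the direction of the gene. Bars stack miR-142a-3p (red), other miRNAs outside the miR-181 family (grey) and the miR-181 family (green), libraries of a group pooled. The green bars nearly vanish in the knockout, the red bars of Cdkn1b remain, and those of Klf3 are much lower, 83 reads at the site in wild type and 23 in the knockout.

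Genes named in the literature as miR-142 targets, listed without regard to the arm, mostly had reads, at modest levels. Of the 21 on this list, 20 had miR-142a-3p reads (1154 in all, 0.850% of its reads), Tnfrsf13c had none, and 9 had at least 3 reads in every library. Having a read was common, as 9923 gene spans had 1 or more. So did 18 of 19 cyclic AMP genes and 25 of 25 T cell genes, described below. These counts therefore set none of the lists apart. Cdkn1b led with 417. The actin regulators Wasl (105 reads, 66.5% of its non-miR-181 reads), Rac1 (43, 60.6%) and Cfl2 (76, 57.6%) and the clock gene Arntl (72, 58.1%) had shares above the overall level. Tgfbr1 (71, 49.0%), a receptor subunit of TGF-beta, and the phosphodiesterase Pde3b (41, 43.6%) were nearer to it, and the cytokine receptor subunit Il6st (100, 36.5%) and the kinase Prkca (87, 31.2%) were below it. The median share was 46.3% over the 18 listed genes with at least 20 reads outside the miR-181 family, and 39.7% over the 675 spans above, each with at least 100.

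Wasl, which drives actin branching, had 29, 17 and 11 reads in wild type and 14, 19 and 15 in the knockout. In RPM this was 359 ± 8.96 against 270 ± 32.0, without overlap, yet its log2 fold change of -0.39 (SE 0.26) did not pass in edgeR (adjusted p = 0.644). A lack of overlap was found for 14.2% of all 458 contacts tested. Of the 7 listed genes in the test none passed, with changes from -0.39 to 0.22 and a median of -0.15, against a median of 0.02 over all 395 miR-142a-3p contacts tested. As 1.09% of all contacts passed, a count of 0 among 7 says nothing about the list.

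The genes of cyclic AMP signalling were described in the same way. Of these, 18 of 19 had reads (Prkaca had none) and 5 had at least 3 in each library, namely the anchor protein Akap13 (157), the factor Creb1 (58), and the phosphodiesterases Pde3b, Pde7a (37) and Pde4d (36). The only one deep enough to test, Akap13, did not pass in edgeR, with a change of -0.08. The median share was 38.6% over the 12 genes with at least 20 reads outside the miR-181 family.

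All 25 T cell genes had reads, 4466 in all (3.29%), and 12 had at least 3 in each library. After Themis, Satb1, Rag1, Ptprc and Runx1 these were Cd247 (240), Cd8a (209), Bcl11b (195), Tcf7 (193), Lef1 (171), Cd4 (81) and Cd8b1 (45). Cd8a, a chain of the CD8 coreceptor, had 111 of its 209 reads at 1 site and a share of 64.9%, while Bcl11b, a factor of T cell commitment, stood at 24.2%. Cd8a had 65, 29 and 26 reads in wild type and 30, 33 and 26 in the knockout, or 757 ± 136 against 500 ± 5.79 RPM, with no overlap. Its log2 fold change of -0.57 (SE 0.21) did not pass in edgeR (adjusted p = 0.223). Tcf7 went the other way, also without overlap, with 493 ± 50.8 RPM in wild type and 658 ± 64.9 in the knockout. Its log2 fold change of 0.47 (SE 0.21) did not pass either (edgeR adjusted p = 0.351). Of all 458 contacts tested, 14.2% did not overlap, so a lack of overlap does not set these genes apart. None of the 11 tested passed, against 1.09% of all contacts, and their median change was -0.04. The median share was 37.9% over the 24 genes with at least 20 reads outside the miR-181 family.

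Few contacts of miR-142a-3p passed the test between genotypes. Of 458 contacts of a miRNA outside the miR-181 family with a gene span that were deep enough to test, 395 were those of miR-142a-3p. Among these 395, 48 had an unadjusted edgeR p under 0.05, so the count that passed is not a count of all changed contacts. In edgeR 5 of the 458 passed an adjusted p of 0.05 (1.09%; 0.437% higher and 0.655% lower in the knockout), and all 5 were contacts of miR-142a-3p. They were Gm4258 and Rfx7, higher, and Klf3, Phb2 and Usp7, lower. With the rows of the miR-181 family in the fit, 27 of the 422 tested contacts outside that family passed, 21 higher and 6 lower. An unadjusted edgeR p under 0.05 was nearly as frequent as before, in 60 of these 422 and in 56 of the 458. The median change was 0.103 over the 422 and 0.015 over the 458. What part of the larger count came from the added rows was not tested. Over the 395 contacts of miR-142a-3p the changes ran from -1.93 to 1.26, and 11 reached a size of 1.

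**Figure D5:**
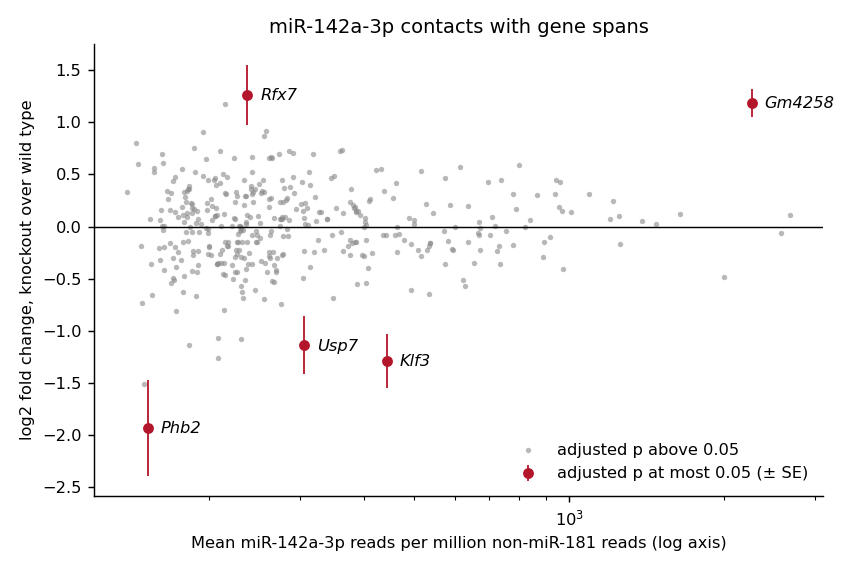
Log2 fold change of knockout over wild type against mean reads per 1000000 non-miR-181 reads (logarithmic axis) for the 395 tested contacts of miR-142a-3p. Red points with bars (SE from edgeR) are the 5 contacts that passed an adjusted p of 0.05, Gm4258 and Rfx7 above 0 and Klf3, Usp7 and Phb2 below it. The other points scatter around a median of 0.02.

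Gm4258 is a lncRNA gene at chr1:137898464-137963020, whose span ends 3435 nt before Mir181a-1, 1 of the 2 deleted genes. It had 98, 73 and 45 miR-142a-3p reads in wild type and 182, 198 and 170 in the knockout, or 1411 ± 191 against 3105 ± 182 RPM. Every knockout library lay far above every wild-type library (log2 fold change 1.19, SE 0.13, edgeR adjusted p = 5.4e-06). The reads of the other miRNAs on this span rose alike, by 1.11 (SE 0.11, adjusted p = 2.9e-19 over 719 spans, of which 2.78% passed). Reads of both kinds thus rose on this span. The difference of the 2 changes was 0.06 (SE 0.17), and miR-142a-3p made up 47.1% of the span's reads over the 6 libraries.

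Klf3, a repressive factor of the Krüppel-like family, had 46, 29 and 22 reads in wild type and 10, 18 and 16 in the knockout, or 635 ± 93.1 against 249 ± 74.6 RPM. The groups did not overlap (log2 fold change -1.29, SE 0.26, edgeR adjusted p = 0.0140). The loss lay at 1 site, chr5:64829264-64829352 on the plus strand, 3549 to 3637 nt inside the 3′ end of the span, where miR-142a-3p made 99.1% of the reads outside the miR-181 family. This site had 41, 23 and 19 reads in wild type and 6, 6 and 11 in the knockout. Elsewhere in the gene there were 5, 6 and 3 and then 4, 12 and 5. In the test of sites, in which 3 of 83 passed (3.61%; 1.2% higher and 2.41% lower), its change was -2.08 ± 0.35 (log2 ± SE), with an adjusted p of 0.00152 in edgeR.

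Part of these reads were repeats of an identical line. Counting such lines once keeps at most 1 read of a miRNA per position in each library. Different molecules at 1 position cannot be told from copies and are removed with them, which takes most from the fullest positions. With identical lines counted once, the Klf3 site had 18, 14 and 10 reads in wild type and 6, 4 and 9 in the knockout. Its change was then -1.26 (edgeR adjusted p = 0.0709), that of the gene -0.66 (adjusted p = 0.328), and neither passed. The gene's call was also lost without wild-type library 2 (adjusted p = 0.0537) and without knockout library 1 (adjusted p = 0.0853), while that of the site held without any 1 library. The miR-181 family had 11 reads at this site in wild type and 1 in the knockout. In the wild-type profile around it, the fullest miR-181 bin was at 60 nt from the site's centre (11 reads). That of miR-142a-3p was at 0 nt (38 reads). Reads of the other miRNAs over the whole gene changed by -0.49 (SE 0.28, adjusted p = 0.470).

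Usp7, a deubiquitinase that stabilises the p53 regulator Mdm2, had 33, 19 and 14 reads in wild type and 9, 11 and 13 in the knockout (423 ± 40.8 against 189 ± 55.7 RPM), again without overlap. The log2 fold change was -1.14 (SE 0.28, edgeR adjusted p = 0.0468). Its main site, chr16:8693015-8693117 on the minus strand, 4293 to 4395 nt inside the 3′ end, had 23, 14 and 9 reads in wild type and 6, 9 and 4 in the knockout. It fell by 1.51 (SE 0.33, edgeR adjusted p = 0.00746) and was 95.6% miR-142a-3p. For the other miRNAs on Usp7, edgeR gave 0.15 ± 0.31 (log2 ± SE, adjusted p = 0.885). Both Usp7 calls were lost with identical lines counted once, with changes of -1.01 for the gene and -1.19 for the site (edgeR adjusted p = 0.156 and 0.110).

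Phb2, a prohibitin of the mitochondrial inner membrane, had 22, 9 and 8 reads in wild type and 4, 3 and 4 in the knockout, the lowest counts of the 5. Its log2 fold change was -1.93 (SE 0.46, edgeR adjusted p = 0.0435), and 40 of its 50 reads lay at 1 site, chr6:124715303-124715347. Rfx7, a transcription factor, had 11, 6 and 5 reads in wild type and 23, 19 and 17 in the knockout (log2 fold change 1.26, SE 0.29, edgeR adjusted p = 0.0435). Its 81 reads were scattered over 53 sites, at most 8 at 1 of them. These calls rested on all libraries. Rfx7 kept its call only without knockout library 2 (adjusted p 0.0702 to 0.172 without 1 of the others). Phb2 lost it without each of the 5 libraries whose removal left it in the test (0.0528 to 0.250), and Usp7 without each library but knockout library 3 (0.0613 to 0.250). The Usp7 site lost its call without each library but wild-type library 3 (0.0537 to 0.133).

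Whether these changes were those of miR-142a-3p or of the gene's reads in general was tested directly, as the difference between its change and that of the other miRNAs over the same span. This test was added after the data were seen. In edgeR none of 803 spans passed, and 28 had an unadjusted p under 0.05. The difference was -0.80 (SE 0.38) for Klf3, 0.88 (SE 0.46) for Rfx7, -1.36 (SE 1.22) for Phb2 and -1.31 (SE 0.44) for Usp7, with adjusted p-values of 0.995 for the first 3 and 0.796 for Usp7, whose unadjusted p was 0.00267. These genes were chosen by their miR-142a-3p change in the same libraries, which enlarges the difference, so their values are a description only. Phb2 had only 1 to 4 reads of other miRNAs per library, too few to show a difference.

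The pattern of miR-142a-3p over genes was most like that of miR-16-5p, let-7a-5p and let-7f-5p among the 10. Over the 3453 gene spans with at least 20 reads outside the miR-181 family, pooled over the 6 libraries, Spearman's rank correlation was 0.466, 0.465 and 0.440, and the lowest was 0.347 for miR-20b-5p. The points share libraries, gene length and gene abundance, and miRNAs with fewer reads have noisier counts, so these values describe the libraries only.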

How the data were processed

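Members, gene lists and tests were chosen with earlier results of these data known. Per the labels, libraries were made by a company and sequenced as paired 150-nt reads. The submitters' processing notes name Bowtie2 2.4.5, STAR 2.7.10, SAMtools 1.11, UMI-tools 1.1.1 and bedtools 2.30.0, without roles, and mm10 and GRCm38.p6. The files deposited by the authors hold read counts, 1 chimeric read per line at 1 position. All lines were used, and the 6 inputs were not analysed here. What filters preceded the deposit is not given in the sources used here.

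Reads were named by miRNA hairpin, then by protein-coding span, then by other spans of RefSeq GRCm38.p6, with strands from its promoter table. Counts per miRNA, per contact and per site were fitted with edgeR 4.0.16 in R 4.3.3 (quasi-likelihood, TMM, filterByExpr with a minimum count of 10), over the 6 Ago2 IP libraries, with miR-181 contacts and sites left out. DESeq2 1.42.0 was an alternative. The fits were tested on counts simulated with 1 common dispersion for all features, which the data need not have. They recovered 80.0% of the 40 contacts changed 2-fold among 458, and 57.1% of the 7 such sites among 83. Of the calls in these simulations, 2.82% and 7.69% were false. Exact permutations used Python 3.11.15. Named genes were the 20 highest spans, 10 highest sites, up to 5 calls per direction, listed genes with 3 reads in every library, the 10 next miRNAs and the 3 most alike. The result of 1 further gene list is not reported here. The spans with the highest shares, and the largest sites of Cd8a and Phb2, were chosen after their values were seen. Same-numbered libraries did not deviate together (correlations -0.18 to 0.00 over miRNAs). Libraries of a group differed by more than sampling noise over miRNAs (chi-square p between 2.7e-14 and 0.00246).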

Additional observations from a re-analysis of the deposited data

Results flagged for a closer look

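Reads of miR-142a-3p were also present in the libraries outside the comparisons above, the Ago2 IPs with a further enrichment for miR-181, which is why they are given here. There it made up 0.402% ± 0.0747 of all reads in wild type (3053 reads) and 9.85% ± 0.551 in the knockout (3812 reads; SD, n = 3 each). Of the reads outside the miR-181 family it took 37.9%, 41.2% and 39.3% in the wild-type libraries and 34.9%, 36.4% and 33.7% in the knockout libraries, without overlap. These means were 39.4% ± 1.68 and 35.0% ± 1.36. miR-142a-5p again had 0 reads, in a library of 293149 reads as in 1 of 6832, which allows a share of up to 0.00102% and 0.0439%.

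All of the 10 largest sites had reads in the enriched libraries, from 1 read at ND1 to 34 at Ino80c. Outside these 10, the Klf3 site had 2, 1 and 3 reads for wild type and 0 in each library of the knockout, and the Usp7 site 4 reads in all in wild type and 2 in the knockout. These counts are too few for a test, and whether they come from the same cells as the Ago2 IP libraries is not given in the sources used here.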

How the results depend on the processing

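The change of miR-142a-3p among miRNAs was between -0.05 and 0.00 in edgeR or DESeq2 and passed in none of the alternatives but library sizes alone, where it was 0.52 (reversed, adjusted p = 1.7e-08) and 90 miRNAs passed in place of 10. By construction those sizes hold the miR-181 reads that the knockout lacks. The share difference of 0.0599 points was between -0.35 and 0.64 with 1 library left out and became 11.97 as a share of all reads. The replicate number, which did not pair the libraries, gave as a block 16 miRNAs, 5 contacts and 7 sites (5 of miR-142a-3p), and left the share difference at 0.0599. With 1 library left out, 2 (without wild-type library 1) to 19 (without knockout library 2) miRNAs passed, and 6 without wild-type library 2. Of contacts 1 to 5 passed, and of miR-142a-3p contacts 1 to 4: 1 without wild-type library 2 or knockout library 1, and 3 without wild-type library 3. Of sites 1 to 4 passed, and of miR-142a-3p sites 1 to 3: 1 without wild-type library 2 or knockout library 2.

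Of the 5 contacts and 3 sites, DESeq2 called 2 contacts and 1 site, all of miR-142a-3p. Fits without a filter, which used 1 common dispersion over 100022 contacts and 262684 sites, called 1 contact, none of the 5, and 0 sites (613 with an unadjusted p under 0.05). Counting identical lines once, which keeps at most 1 read of a miRNA per position and library, called 2 contacts and 2 sites. The contacts were Gm4258 and Rfx7, and neither site was among the 3. With miR-181 rows in the fit, 27 contacts and 10 sites of other miRNAs passed, 19 and 7 of them of miR-142a-3p. Of the 27, 21 were higher, against 2 of 5 in the original fit. Contacts outside the miR-181 family with an unadjusted edgeR p under 0.05 numbered 60 of 422, against 56 of 458 in the original fit. Single positions gave 0 sites, with too few reads each. The contact of Gm4258 passed in 12 of 13 alternatives and that of Klf3 in 9 of 13. Rfx7 passed in 6 of 13, Usp7 in 5 of 13 and Phb2 in 2 of the 10 that tested it. The Klf3 site passed in 12 of 14 and the Usp7 site in 6 of 14. All kept their direction. The reads of the other miRNAs at Usp7, added after seeing the data, had a change of 0.15 (SE 0.31, edgeR adjusted p = 0.885). Of 19 uncalled spans among the 20, fitted 246 times, only Rag1 passed once. Concentration moved from 0.982 to 1.19 (50-nt joining), 0.180 (single positions), 0.471 (identical lines once) and, in an alternative added after seeing the data, 0.770 (no mitochondrial genome), and was lowest of the 11 in each. Except where stated, the cause was not tested.

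Depth limits the tests of sites most, with 52 miR-142a-3p sites of 92650 tested. The planned values for miR-142a-5p, the arm ratio and the overlap of the arms' targets were not computed, as the 5p arm had no read. Sites and spans carry no exon or untranslated-region class, and no genome sequence was used to look for seed matches.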
